A study of Homo sapiens with 6 samples.

Results

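WDR62, ASPM, CDK5RAP2, MCPH1 and CIT are genes whose loss causes primary microcephaly, a small brain present at birth, and their proteins act at the spindle pole, the centrosome or the midbody of dividing cells. These 5 genes were chosen by symbol, and all 5 were among the 15953 genes measured in each library. The cells were EJ, an established human bladder cancer line, and total RNA was sequenced in 2 groups of 3 libraries. By the labels the groups are shNC and shSTIL, which the methods describe as stable cells with a negative control or a STIL knockdown lentivirus. The headings of the deposited tables write si in place of sh, the usual prefix of transfected siRNAs, and the sources used here do not settle which reagent was used. The groups asked which transcripts change when STIL, a centriole assembly factor that is itself a primary microcephaly gene, is lowered. The hairpin's sequence is not given in these sources, and they do not say whether the libraries came from separate cultures, so p-values measure only the spread between these libraries.

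Each new centriole grows beside an old one, and the pair with its surrounding material forms the centrosome, which becomes a spindle pole in mitosis. WDR62 and ASPM sit at the pole and keep it focused, with WDR62 bound by Aurora A and both linked to the microtubule-severing enzyme katanin. CDK5RAP2 anchors gamma-tubulin rings in the pericentriolar material, MCPH1 restrains condensin II and takes part in the DNA damage response, and CIT encodes citron kinase, which stabilises the midbody at the end of cytokinesis. In neural progenitors, defects of these proteins disturb spindle orientation or division and the brain stays small.

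The promoters of 4 of these 5 genes were read from RefSeq on GRCh38.p14, because WDR62 and CIT were both lower in shSTIL libraries while ASPM and CDK5RAP2 did not pass the test. Each line holds 186 bases on the strand of the gene, upstream of its RefSeq start, and capitals mark CCAAT boxes (CCAAT, or ATTGG on the other strand) and cell cycle homology regions (CHR, searched as TTTGAA, or TTCAAA on the other strand).
WDR62, chr19:36054682-36054867, plus strand: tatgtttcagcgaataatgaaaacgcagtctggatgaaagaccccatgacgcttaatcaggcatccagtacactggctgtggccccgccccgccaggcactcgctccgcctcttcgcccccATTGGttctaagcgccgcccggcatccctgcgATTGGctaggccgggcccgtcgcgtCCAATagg
CIT, chr12:119877350-119877535, minus strand: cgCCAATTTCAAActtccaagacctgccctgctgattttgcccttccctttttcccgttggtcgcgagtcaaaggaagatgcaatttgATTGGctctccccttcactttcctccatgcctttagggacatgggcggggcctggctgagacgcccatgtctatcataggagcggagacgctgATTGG
ASPM, chr1:197146699-197146884, minus strand: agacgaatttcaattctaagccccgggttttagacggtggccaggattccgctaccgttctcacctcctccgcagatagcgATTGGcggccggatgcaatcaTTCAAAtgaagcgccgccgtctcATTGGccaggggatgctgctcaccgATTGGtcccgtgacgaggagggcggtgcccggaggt
CDK5RAP2, chr9:120580197-120580382, minus strand: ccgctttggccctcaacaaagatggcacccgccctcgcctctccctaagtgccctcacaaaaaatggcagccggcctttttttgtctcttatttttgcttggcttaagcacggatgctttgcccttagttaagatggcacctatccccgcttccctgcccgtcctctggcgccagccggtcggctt

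Over the whole RefSeq promoter window, which extends further upstream and past the start, CCAAT occurred 3 times in WDR62, 3 times in CIT, 4 times in ASPM and 0 times in CDK5RAP2. At least 3 copies were found in 3.42% of 27305 RefSeq promoters of this length, and in 4.42% of the 12621 that belong to measured genes. TTTGAA occurred 2 times in CIT, 1 time in ASPM, 1 time in CDK5RAP2 and 0 times in WDR62. At least 1 copy was found in 15.4% of all promoters and in 10.4% of those of measured genes. An E2F-like word, TTCCCGC or TTGGCGC on either strand, occurred 1 time in WDR62 and in none of the other 3. Such a word was found in 9.33% of all promoters and in 13.6% of those of measured genes. In CIT a CCAAT and a TTCAAA lie side by side at the upstream end without sharing a base. ASPM had the most CCAAT boxes and CDK5RAP2 had none, and neither gene passed the test. Whether these words bear on expression was not tested. A match is a description of the letters and not a site of binding.

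The libraries held 16214771 to 16901633 reads, and shNC and shSTIL libraries differed little in depth. STIL, the targeted gene, was at a log2 CPM (log2 of read counts scaled to library size) of 5.98, 6.10 and 6.01 in shNC and 4.05, 4.06 and 4.01 in shSTIL libraries, which left 25.2% of the control level. Of 12 urothelial markers, 10 were measured, with 23.9 to 28.3 CPM in sum over all libraries, most of them from PPARG, and KRT5 and KRT20 had at most 1 read in a library. Of 4 keratins that most epithelial cells make, KRT7, KRT8 and KRT18 were measured and summed to 977 to 1108 CPM, and KRT19 was not among the measured genes. EPCAM and CDH1, epithelial genes of the urothelial list, were low, at 15 to 21 and 0 to 3 reads per library. Of 10 markers of immune, endothelial and stromal cells, 6 were measured, and they summed to 14.4 to 17.8 CPM. Expression was tested with limma over all genes. A gene with an adjusted p under 0.01, the limit the study used, was called a differentially expressed gene (DEG).

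Among the 5 genes, WDR62 and CIT fell and MCPH1 rose in shSTIL cells, while ASPM and CDK5RAP2 did not pass the test. The 3 DEGs stand against a background in which 47.1% of all genes were DEGs, 23.6% lower and 23.5% higher, so being called is no distinction in these libraries. The number of DEGs among all genes was 7509, and it was 4900 without shSTIL replicate 3. For 4 of the 5 genes the shNC and shSTIL values were apart without overlap, against 60.3% of all genes. In RNA from whole cultures, fewer cells in a phase of the cycle and less RNA per cell cannot be told apart.

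WDR62, the scaffold that recruits partners to the spindle pole, spans chr19:36054881-36105106 (GRCh38, plus strand, 32 exons). Expression in log2 CPM was 6.06, 5.94 and 5.92 in the shNC libraries and 5.16, 5.45 and 5.31 in the shSTIL libraries. Every shSTIL library was below every shNC library, and the shSTIL libraries were spread more widely, with replicate 1 the lowest. These values rest on 964 to 1069 reads per shNC library and 608 to 751 per shSTIL library. The change was -0.67 on the log2 scale (standard error, SE, 0.07, limma adjusted p = 1.48e-06), which left 62.9% of the control level (95% interval 56.9 to 69.5%). It was the largest change of the 5 genes in size, and 31.6% of all lower DEGs had a fall of this size or more.

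CIT, which encodes citron kinase, spans chr12:119685790-119877291 (minus strand, 48 exons). Expression in log2 CPM was 7.05, 7.04 and 7.17 in the shNC libraries and 6.69, 6.60 and 6.61 in the shSTIL libraries, on 2130 to 2288 and 1656 to 1770 reads. The groups were separate, and each was tight. The change was -0.45 on the log2 scale (SE 0.04, limma adjusted p = 7.72e-07), which left 73.2% of the control level (95% interval 68.7 to 77.9%). Of all lower DEGs, 54.2% had a fall as large or larger. CIT also makes a shorter transcript that lacks the kinase domain, and the gene values used here do not separate the forms. An antisense RNA on the other strand and the microRNA MIR1178 on the same strand overlap exons of CIT, and neither was analysed here. Whether the counting used strand is not given, as for MCPH1 below.

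MCPH1 encodes microcephalin and was the gene of the 5 that rose. It spans chr8:6406592-6648504 (plus strand, 14 exons). Expression in log2 CPM was 4.05, 3.84 and 4.07 in the shNC libraries and 4.50, 4.46 and 4.58 in the shSTIL libraries. Every shSTIL library was above every shNC library, although MCPH1 had the fewest reads, 232 to 266 per shNC library and 377 to 403 per shSTIL library. The change was 0.53 on the log2 scale (SE 0.08, limma adjusted p = 5.32e-05), or 144% of the control level (95% interval 128.2 to 161.5%), and 38.6% of all higher DEGs rose by this much or more. Without shSTIL replicate 3 the log2 fold change was 0.49 and the adjusted p was 0.0108, past the limit of 0.01. Exons of ANGPT2 and of antisense RNAs overlap exons of MCPH1 on the other strand, and whether the counting used strand is not given in the sources used here. ANGPT2 was close to the floor, with a log2 CPM of -3.05 to -1.69 over the 6 libraries, and the antisense RNAs were not analysed here.

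ASPM, whose protein binds calmodulin through a long run of repeats and holds microtubule ends at the pole, spans chr1:197084128-197146694 (minus strand, 28 exons). Expression in log2 CPM was 7.21, 7.24 and 7.13 in the shNC libraries and 7.20, 7.01 and 7.09 in the shSTIL libraries. The groups overlapped, since shSTIL replicate 1 lay above shNC replicate 3. The change was -0.09 on the log2 scale (SE 0.05, limma adjusted p = 0.11), with 2211 to 2515 reads per library. The 95% interval, 87.2 to 100.6% of the control level, holds a fall of the size of neither WDR62 nor CIT.

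CDK5RAP2, the anchor of gamma-tubulin rings, spans chr9:120388869-120580170 (minus strand, 38 exons). Expression in log2 CPM was 6.54, 6.58 and 6.50 in the shNC libraries and 6.49, 6.39 and 6.48 in the shSTIL libraries. The groups did not overlap, but the lowest shNC and the highest shSTIL library differed by less than the SD within either group. The change was -0.09 on the log2 scale (SE 0.04, limma adjusted p = 0.0915), with an interval of 88.7 to 100.2% of the control level. Neither ASPM nor CDK5RAP2 was a DEG in any of the 14 alternative fits.

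**Figure D1:**
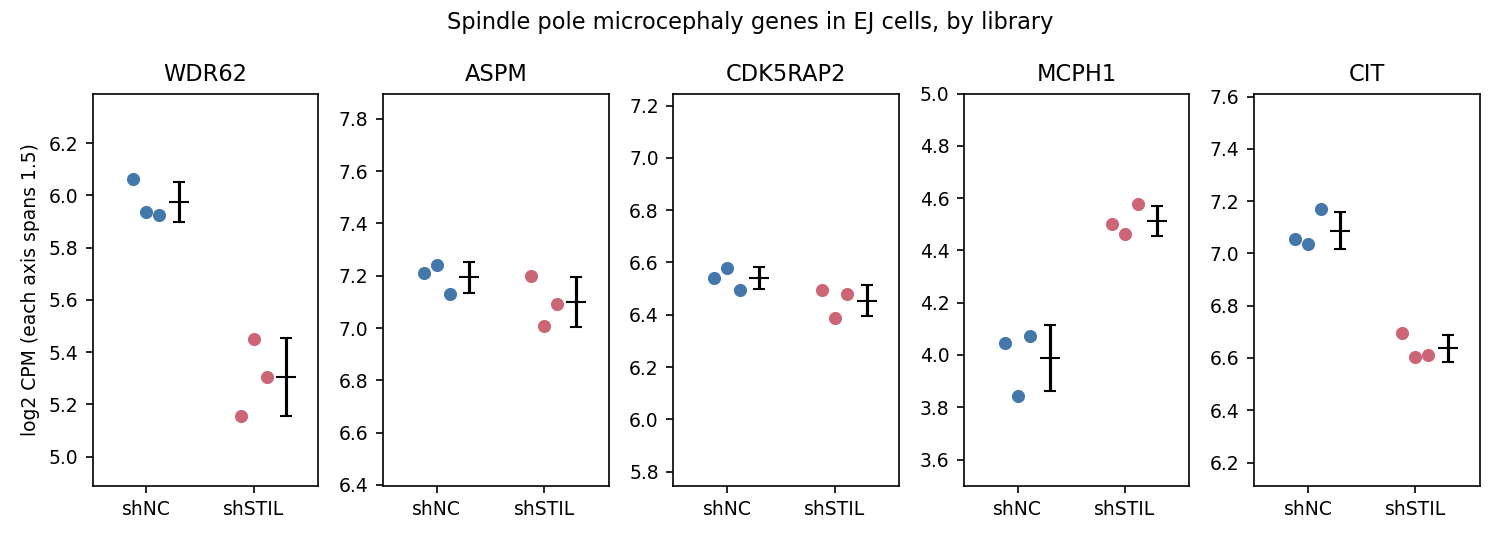
Log2 CPM of the 5 genes in each library, with shNC in blue and shSTIL in red, the mean as a black dash and the SD as a bar (n = 3). WDR62 and CIT lie lower and MCPH1 higher in every shSTIL library, ASPM overlaps between the groups, and CDK5RAP2 is separate by a narrow margin.

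Levels of different genes were compared per length. In shNC cells the mean log2 CPM per kilobase of the transcript with the longest coding sequence was 3.97 for CIT, 3.90 for CDK5RAP2, 3.75 for ASPM and 3.75 for WDR62, and STIL itself was at 3.71. CIT and CDK5RAP2 differed by less than the SD of CIT between libraries (0.07), and ASPM and WDR62 could not be ordered. MCPH1 was at 0.98, below the other 4, and at 2.66 per kilobase of coding sequence, since the transcript used has a long 3′ untranslated region. In shSTIL cells the level per kilobase of transcript was 3.82 for CDK5RAP2, 3.66 for ASPM, 3.51 for CIT, 3.08 for WDR62 and 1.51 for MCPH1. CIT, the highest in shNC cells, was below CDK5RAP2 and ASPM in shSTIL cells. Per kilobase of coding sequence the shNC levels lay further apart, at 4.45 for CIT, 4.03 for CDK5RAP2, 3.81 for ASPM and 3.78 for WDR62, and CIT was the highest in both groups. Both the spacing and the order thus depend on the length used.

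Whether the genes moved by different amounts was tested on the difference of their log2 CPM within each library. Of the 10 pairs, 8 had differences that did not overlap between the groups, each with an exact two-sided permutation p = 0.1, the smallest that 3 libraries against 3 allow. Each of these 8 pairs holds WDR62, CIT or MCPH1, the genes already called, so the count is not separate from those calls. Pairs of other genes were not compared, and among single genes 60.3% had groups without overlap. WDR62 minus ASPM differed between shSTIL and shNC by -0.57 on the log2 scale (SE 0.15), and WDR62 minus CDK5RAP2 by -0.58 (SE 0.13). For ASPM minus CIT the value was 0.36 (SE 0.08) and for CDK5RAP2 minus CIT 0.37 (SE 0.07), so CIT also lost ground to both. The pair that differed most between the groups was WDR62 minus MCPH1, at 1.99 in shNC and 0.79 in shSTIL libraries. WDR62 and CIT were not separable, with a change of -0.22 (SE 0.13, exact permutation p = 0.2). ASPM and CDK5RAP2 kept the most constant distance, 0.66 in shNC and 0.65 in shSTIL libraries, a change of -0.01 (SE 0.03, exact permutation p = 0.8). With 3 libraries a group, none of these differences can pass 0.05 by this test.

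**Figure D2:**
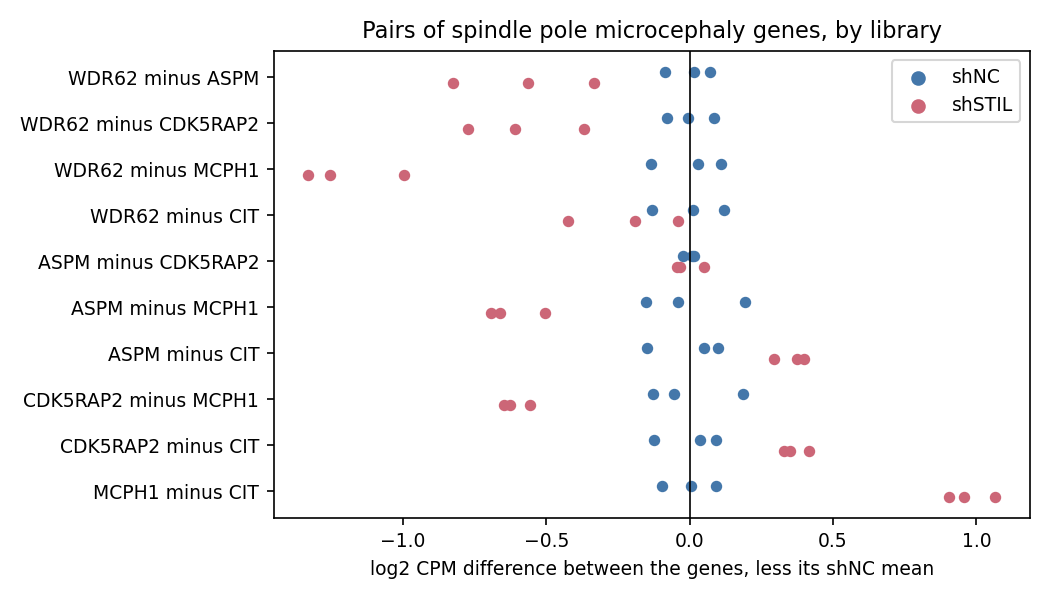
Difference in log2 CPM between each pair of genes in each library, after subtraction of its mean in shNC libraries (horizontal axis), with shNC in blue and shSTIL in red. The groups overlap for WDR62 minus CIT and for ASPM minus CDK5RAP2, and are apart for the other 8 pairs.

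The genes with the nearest pattern were found by the root mean square difference of the 6 library values, each relative to the shNC mean, among genes of like abundance. The nearest to WDR62 were CLK2 (0.027 on the log2 scale), CHTF18 (0.063) and GPRC5B (0.064). COX7A2 (0.026), DDX23 (0.029) and HSD17B4 (0.036) lay nearest to CIT, and TSSC4 (0.036), UNC50 (0.060) and FDX2 (0.060) to MCPH1. ERC1 (0.026), RGP1 (0.038) and ANKIB1 (0.038) lay nearest to ASPM. WDTC1 (0.024), EIF4EBP2 (0.026) and CEP192 (0.027) lay nearest to CDK5RAP2, and CEP192 encodes a protein of the pericentriolar material. Between 1403 and 2670 genes were compared for each, so near neighbours are common.

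The study also lists 3 siRNAs against STIL, and their guide strands are shown because a guide can repress other transcripts through bases 2 to 8, its seed, given in capitals. Whether the shSTIL cells received one of these sequences is not given in the sources used here.
siSTIL#1: aAUAUGUAucgcaaacagctt
siSTIL#2: uUAAUCCAgagaucacugctt
siSTIL#3: uUGUGGAAcaguaagauggtt

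The 3′ untranslated region of WDR62, ASPM and CDK5RAP2 held the match to none of these seeds. That of CIT held 1 match to the siSTIL#1 seed (TACATAT, found in 14.1% of 15509 genes). That of MCPH1, which rose, held 1 match to the siSTIL#1 seed and 1 to the siSTIL#3 seed (TTCCACA, found in 12.5%). The siSTIL#2 match (TGGATTA, found in 9.01%) was in none of the 5. The lengths scanned differ widely, from 75 bases in WDR62 to 5455 in MCPH1.

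The wider set of 30 primary microcephaly genes, the named genes of the disease loci, was read in the same fit. Of these, 15 fell and 6 rose, against 23.6% and 23.5% of all genes, and 9 did not pass. Their median log2 fold change was -0.21, beside 0.01 for all genes. Without STIL and the 5 genes above, 12 of 24 fell and 5 rose, with the same median. ASPM and CDK5RAP2 are among the 9. Without shSTIL replicate 3, 13 fell and 3 rose, beside 2500 lower and 2400 higher DEGs among all 15953 genes in that fit.

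WDR62 was the sixth largest fall of the 30. STIL (-1.99), MFSD2A (-1.36), LMNB1 (-1.19), NCAPH (-0.97) and LMNB2 (-0.75) fell more, and MFSD2A, a lipid transporter, rests on 27 to 47 reads per shNC library and 9 to 17 per shSTIL library. The lamin genes LMNB1 and LMNB2 build the nuclear lamina and the condensin subunits NCAPH, NCAPD3 (-0.62) and NCAPD2 (-0.61) compact mitotic chromosomes, and all 5 were lower DEGs. Of the kinetochore genes, KNL1 (-0.66) and BUB1 (-0.52) fell, while CENPE, a kinetochore motor, had 0.10 (limma adjusted p = 0.187). PDCD6IP (-0.41), an escort of membrane scission, and RRP7A (-0.18), a ribosome assembly factor, also fell.

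Genes that work with STIL in centriole assembly did not move one way. SASS6 (-0.38), the cartwheel protein, and CEP152 (-0.48), which brings PLK4 to the centriole, fell. CEP135 (0.54), which joins the cartwheel to the microtubules, rose, and CENPJ, which sets centriole length, had -0.17 (limma adjusted p = 0.0339). The other genes that rose were CDK6 (1.00), a G1 kinase, WDFY3 (0.37), an autophagy adaptor, ANKLE2 (0.32), which acts in nuclear envelope reassembly, and NUP37 (0.21), a nuclear pore subunit. MCPH1 was the third largest rise of the 30. KIF14 (-0.01), PHC1 (0.13), ZNF335 (-0.05), COPB2 (-0.10) and TRAPPC14 (-0.25) did not pass the test.

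**Figure D3:**
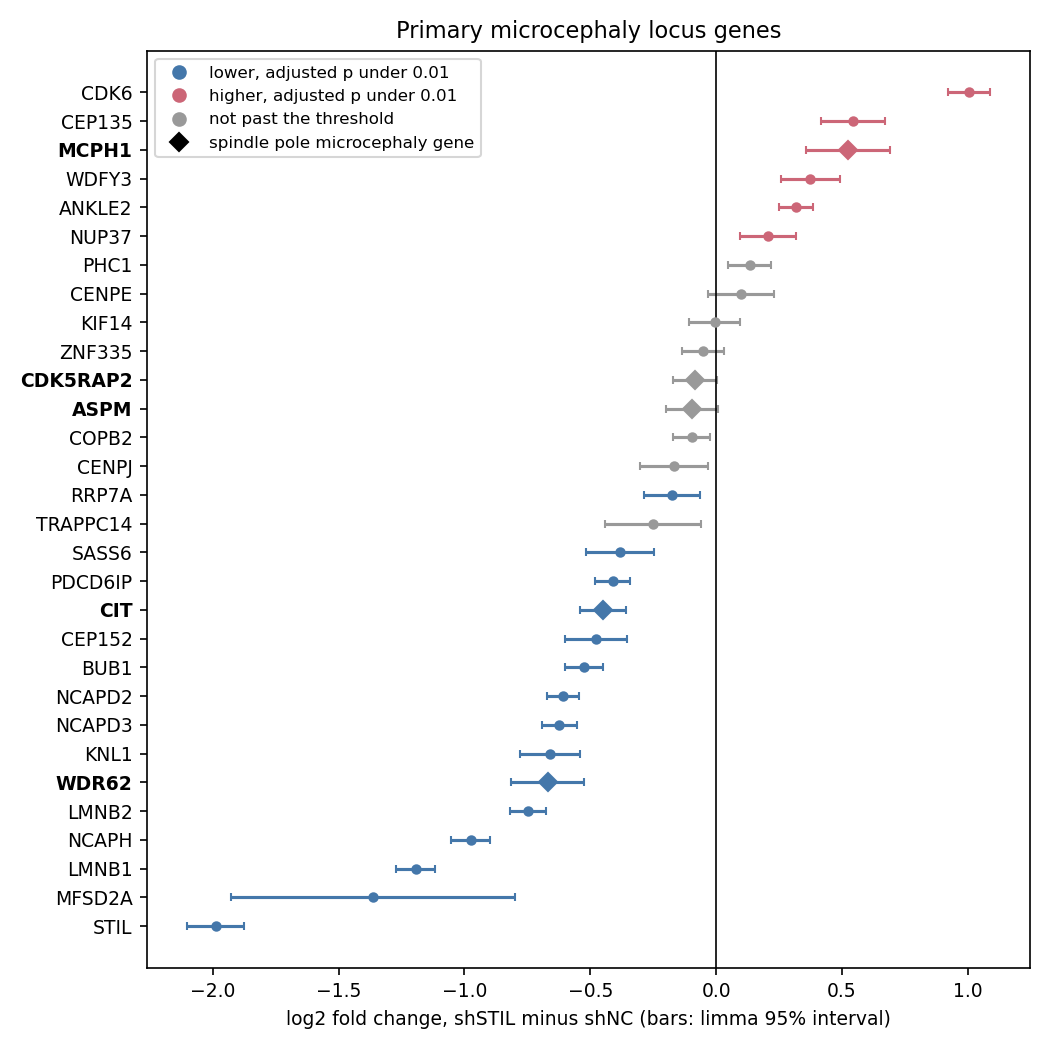
Log2 fold change (shSTIL minus shNC, horizontal axis) of 30 primary microcephaly genes with limma 95% intervals as bars, ordered by value, with lower DEGs in blue, higher DEGs in red, others in grey and the 5 genes of interest as diamonds. WDR62 (-0.67) and CIT (-0.45) lie among 15 lower DEGs, MCPH1 (0.53) among 6 higher DEGs, and ASPM and CDK5RAP2 near 0.

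Among 15 partners of WDR62 and ASPM, 9 fell and 3 rose, against 23.6% and 23.5% of all genes, with a median of -0.19. TPX2 (-0.57), which activates Aurora A on the spindle, and CALM3 (-0.49), one of the genes for the calmodulin that ASPM binds, fell. KATNA1, the severing enzyme of katanin, rose (0.34). CEP170, a centriole appendage protein, rose (0.35), and so did the WDR62-binding kinase MAPK9 (0.16). MAPK8, a related kinase of the same list, fell (-0.19, limma adjusted p = 0.00771). AURKA (-0.24) and PLK1 (-0.24), mitotic kinases that phosphorylate WDR62, fell. Of the 15 genes, 0 fell as much as WDR62. MAPKBP1, the paralog of WDR62, had -0.10 (limma adjusted p = 0.125). Without shSTIL replicate 3, 4 of the 15 fell and 2 rose, beside 2500 lower and 2400 higher DEGs among all 15953 genes in that fit.

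Among 18 partners of CDK5RAP2, 11 fell and 2 rose (median -0.22), against 23.6% and 23.5% of all genes. CDK5RAP2 itself did not pass the test. CEP72 (-1.09), a pericentriolar protein, TUBG1 (to 49.8% of the control level), the main gamma-tubulin, and SPAG5 (-0.74), a spindle protein, had the largest falls. AKAP9 (0.44), another anchor of gamma-tubulin rings, and TUBGCP4 (0.38), a ring subunit, rose. PCNT, which holds CDK5RAP2 at the centrosome, had 0.06 (limma adjusted p = 0.255). TUBG1 has a close copy, TUBG2 (0.04, adjusted p = 0.563), and reads shared by the 2 may be split between them. Without shSTIL replicate 3, 6 of the 18 fell and 2 rose, and without shNC replicate 1, 7 fell and 2 rose. Among all 15953 genes these fits gave 2500 lower and 2400 higher DEGs, and 2820 lower and 2794 higher.

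Among 12 partners of CIT in cytokinesis, 9 fell and 1 rose (median -0.34), against 23.6% and 23.5% of all genes. KIF20A (-0.94), a midzone motor, ANLN (-0.74), the anillin of the contractile ring, and INCENP (-0.66), of the chromosomal passenger complex, had the largest falls. CHMP4C (0.63), an abscission checkpoint subunit, rose. KIF14, the motor that citron kinase binds at the midbody, had -0.01 (adjusted p = 0.928). Of the 12, 5 had a fall as large as that of CIT or larger.

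Among 10 partners of MCPH1, 8 fell and 0 rose (median -0.54), against 23.6% and 23.5% of all genes. MCPH1 itself rose, and the phase genes below also mostly fell. E2F1 (-0.87), a transcription factor of the G1/S step, and the condensin genes NCAPG2 (-0.82) and SMC2 (-0.71) had the largest falls. SET, a histone chaperone, had -0.09 (adjusted p = 0.0278) and ATR, a damage kinase, 0.12 (adjusted p = 0.11).

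Genes of the cell cycle phases were mostly lower in shSTIL cells, against 23.6% lower and 23.5% higher among all genes. WDR62 and CIT were also lower, but MCPH1 was not. Of 43 S phase genes, 42 fell and 0 rose (median -0.97), and 30 had a fall as large as that of WDR62 or larger. Of 54 G2/M phase genes, 39 fell and 3 rose (median -0.34), with 12 that matched or passed the fall of WDR62 and 26 that of CIT. WDR62 and CIT lay between these medians, and ASPM, CDK5RAP2 and MCPH1 above both. The part of the phase genes in the changes of WDR62, CIT and MCPH1 was not tested. The summed level of the phase genes was lower in every shSTIL library than in any shNC library for both lists. Some G2/M phase genes also stand in the partner lists, among them TPX2, AURKA, KIF23, ECT2, ANLN, AURKB and SMC4. The lists are therefore not separate from each other.

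**Figure D4:**
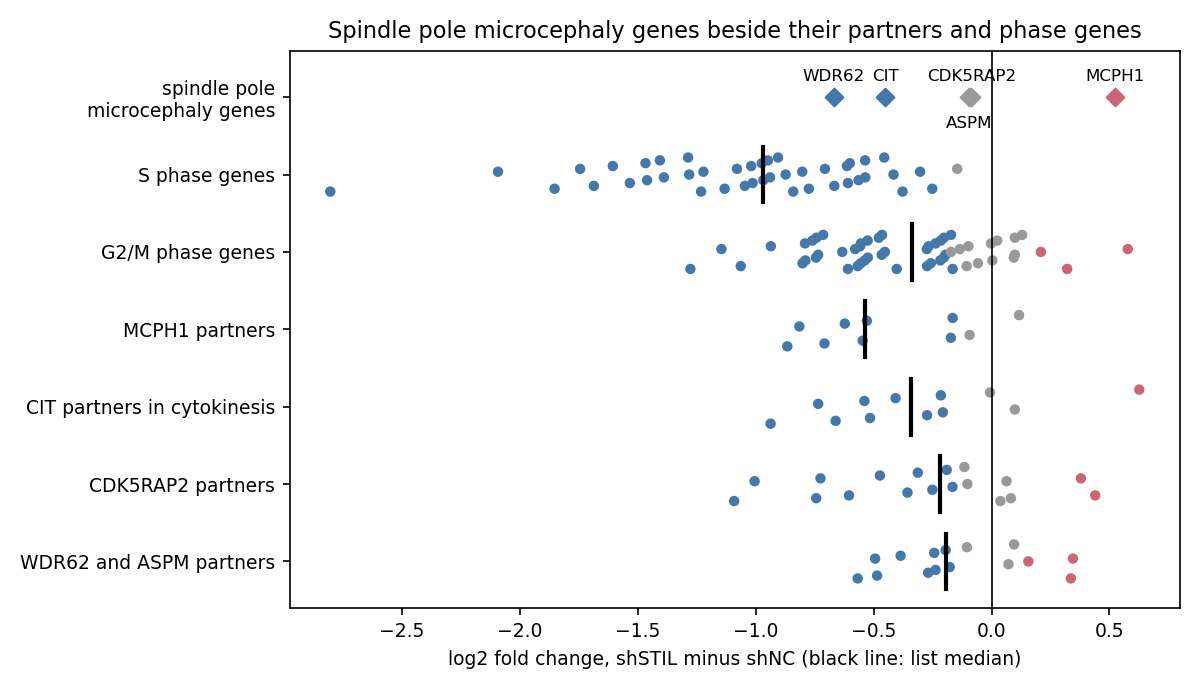
Log2 fold change (shSTIL minus shNC, horizontal axis) of the 5 genes (diamonds) and of each gene of 4 partner lists and 2 phase lists (points), with lower DEGs in blue, higher DEGs in red, others in grey and the list median as a black line. The median is lowest for S phase genes (-0.97), and MCPH1 (0.53) lies to the right of all 10 of its partners.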

How the data were processed

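RNA-seq was done in 6 libraries of EJ cells, 3 shNC and 3 shSTIL. Bowtie2 placed the filtered reads on transcripts, and the authors took estimated counts per gene from RSEM (hg38 per the labels, versions not given in the sources used here). The deposited log2 CPM, scaled by the authors with edgeR, cover all 6 libraries, and the deposited expected counts used here cover 1 shNC and 3 shSTIL libraries, so the log2 CPM were the main values. RSEM shares reads between like transcripts.

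Log2 CPM of 15953 genes were fitted with limma 3.58.1 (mean-variance trend, R 4.3.3) and adjusted over all genes by Benjamini-Hochberg. Reads were recovered from the log2 CPM, with 87.5 to 87.8% whole within 0.01 of a read, and within 0.0205 reads of the deposited counts. Rounded, they were fitted with edgeR 4.0.16 and DESeq2 1.42.0 as alternatives. Single genes and pairs were also compared by exact permutation. Lengths, coordinates and 3′ untranslated regions are from GENCODE 29 (GRCh38). The genes named are the 5, STIL, every gene of the disease loci, up to 3 rises and 3 falls per partner list, and the nearest patterns; others were named after their values were seen, and 1 gene under this rule is not reported here. The genes and lists were chosen with earlier results of these data known.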

Additional observations from a re-analysis of the deposited data

How the results depend on the processing

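WDR62 and CIT kept their direction and remained DEGs in each of 14 alternative fits, with log2 fold changes of -0.74 to -0.59 and -0.48 to -0.41. MCPH1 was called in 13 of 14. When each library was left out in turn it ran from 0.45 to 0.57, and it lost its call only without shSTIL replicate 3 (adjusted p = 0.0108). In the deposited counts, which include 1 control library and allow no test, scaled by library total, CIT was at -0.37 and the other 4 genes moved by less than the larger of their SDs in the 2 groups. DEGs among all genes numbered 4784, and those of the WDR62 and ASPM partners 7, with each gene's own variance. With libraries left out in turn, DEGs numbered 4900 to 5638 among all genes, 6 to 11 among the WDR62 and ASPM partners and 8 to 11 among the CDK5RAP2 partners, in fits with fewer samples. The cause of the other shifts was not tested. Of the other alternatives, 201 values kept their direction and side of the threshold, or stayed within 1.5 times for counts. The replicate block gave 6898 DEGs and changed no call of the 5 genes. Libraries with the same number had deviations correlated over all genes at 0.02, -0.03 and -0.02, which gave no sign of pairing by number. Genes with few reads were included, so a weak pairing could be missed. Depth limits MCPH1 most, at 232 to 403 reads per library.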
